A study of Homo sapiens with 8 samples.

Results

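This account covers 9 genes of the Hippo signalling pathway, YAP1, WWTR1, LATS1, LATS2, TEAD1, AMOTL1, AMOTL2, CCN1 and CCN2, in 2 lists of m6A peaks from U2OS cells, a human osteosarcoma line. A peak belonged to the set when the list's gene name was one of these, with CCN1 and CCN2 written under their older names CYR61 and CTGF. By this rule, 16 of 13219 DF2 siRNA peaks and 16 of 15730 control peaks were theirs, and 8 of the 9 genes had a peak in each list. WWTR1 had none.

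DF2 is YTHDF2, a reader protein of m6A that brings methylated transcripts to the decay machinery in the cytoplasm. The study asked where m6A lies in cytoplasmic RNA with and without siRNA against it. Its 8 libraries form 4 groups of 2: m6A immunoprecipitates of DF2 siRNA cells (DF2 siRNA #1 and #2), m6A immunoprecipitates of control cells (control 1 and 2), and an input library matching each immunoprecipitate. All groups are of the same line, and the labels give no further agent for the control cells, no duration, and no word on whether #1 and #2 are different siRNAs. RNA was broken into pieces of about 100 nt before the antibody step. The authors gave 1 peak list per condition, tied by the labels to both immunoprecipitates. Differences between the lists therefore have no replicate check and carry no p-value, and fewer peaks cannot be told apart from fewer reads, since the depth is unknown. The deposited −log10 value is named FDR for DF2 siRNA and p-value for control, with minima of 1.302 and 1.301. The limits of the lists may thus differ in strictness, and the part of this in fewer or shorter peaks was not tested. A peak needs both RNA and m6A, so its absence does not show that a gene is silent. The YTHDF2 peak stood at percentile 86.7 among DF2 siRNA peaks and 97.9 among control peaks by fold enrichment, and by score at 71.4 among DF2 siRNA peaks and 99.1 among control peaks, where a percentile is the share of peaks in the same list with a lower value. A peak is not a level of RNA, so this does not check the knockdown. Of 8 osteoblast and mesenchymal markers, RUNX2 and COL1A1 had a peak in both lists and the other 6 in neither. Of 4 epithelial markers, 0 had a peak in either list.

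The Hippo pathway restrains growth. The kinases LATS1 and LATS2 phosphorylate the co-activators YAP1 and WWTR1, also called TAZ, and keep them out of the nucleus. When the kinases are inactive, YAP1 and WWTR1 bind TEAD factors such as TEAD1 and switch on genes that include CCN1 and CCN2, which encode secreted matricellular proteins. LATS2 and AMOTL2 are themselves among the genes switched on, and the angiomotin proteins AMOTL1 and AMOTL2 bind YAP1 at cell junctions and in the cytoplasm. The mark m6A lies mostly in the consensus around GGAC, near stop codons and in long exons, and antibodies against it also bind the related mark m6Am at the capped 5′ end.

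The sequence at annotated starts of these genes is given first, to show where their peaks lay around them. RefSeq start windows (GRCh38.p14, 250 bases before to 50 after an annotated start) were found for 7 of the 9 genes, 10 windows in all, and not for TEAD1 and CCN1. Of these genes, 6 had a peak in both lists. In 4 of the 6, a DF2 siRNA peak of their own strand lay in the first 50 bases after a start. In 1, LATS2, a control peak lay there. Over all 5825 genes with a window and a peak in both lists, the shares were 26.6% in DF2 siRNA and 26.9% in control. The first 50 bases were reached in DF2 siRNA only in 3 of the 6 members and 6.23% of all these genes, and in control only in 0 members and 6.56% of all these genes. The shares of both lists over all these genes lay close together, and the members' counts describe 6 genes only. The runs below read 5′ to 3′ on the transcribed strand, with the bases under a DF2 siRNA peak in capitals.
YAP1, bases 1 to 30 after the start, chr11:102110447-102110476, plus strand: ctcagtcgggcgcaGCCGCCGCCAGGGAAA
AMOTL1, bases 1 to 30, chr11:94768356-94768385, plus strand: AGCGCGCGAGAAGCTCTAGGACCCAGCAGC
AMOTL2, bases 1 to 30, chr3:134374418-134374447, minus strand: AGAGCGTCGGCGCCACGGCCGAGAACACAT
LATS2, bases 21 to 50, chr13:21061537-21061566, minus strand: aatgtagcgaatgtcccacTTGGGTCTGCG

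The DF2 siRNA peak began at base 15 of YAP1 and base 40 of LATS2, and it covered all of the first 50 bases of the AMOTL1 and AMOTL2 starts shown. The AMOTL1 and AMOTL2 starts lie inside their RefSeq genes, which begin at base 94706460 for AMOTL1 and 134375417 for AMOTL2. No peak lay in the window at that outer AMOTL2 start. In both genes the peak also covered bases before the start shown, so the bases shown need not be the first of an RNA. The control peak of LATS2 began at the same base as the DF2 siRNA one. GGAC, searched on the transcribed strand, occurred in the first 50 bases of 1 of the 10 windows, that of AMOTL1, and in 18.9% of all 35116 RefSeq windows. In the 250 bases before the start, GGAATG or its reverse complement CATTCC, the core that TEAD factors bind, occurred 3 times in CCN2 and once each in YAP1 and AMOTL2. These were 3 of the 10 windows, against 11.9% of all windows, and 0.0826% of all windows held 3 or more. These are letter matches only, and nothing about binding or methylation was measured by them.

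All 8 members with a peak had one in both lists. Among all genes with a peak in either list 75.2% had one in both. Of the protein-coding genes of RefSeq, 42.2% had a peak in either list, 33.7% in both, 2.44% in DF2 siRNA only and 6.03% in control only. The genes were chosen with these lists known, so their presence is a description. At least 2 peaks were carried by 6 members after DF2 siRNA, where 37.4% of listed genes did so, and by 5 members in control, where 38.9% did. Of the 16 DF2 siRNA peaks, 14 overlapped a control peak of the same strand by 1 base or more, which 87.5% of all DF2 siRNA peaks did. Of the 16 control peaks, 13 were overlapped by a DF2 siRNA peak, against 71.9% of all control peaks. The 2 DF2 siRNA peaks without a partner were the first peaks of YAP1 and AMOTL2. The 3 control peaks without one were the first peak of LATS1, the second of TEAD1 and the second of AMOTL1.

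**Figure D1:**
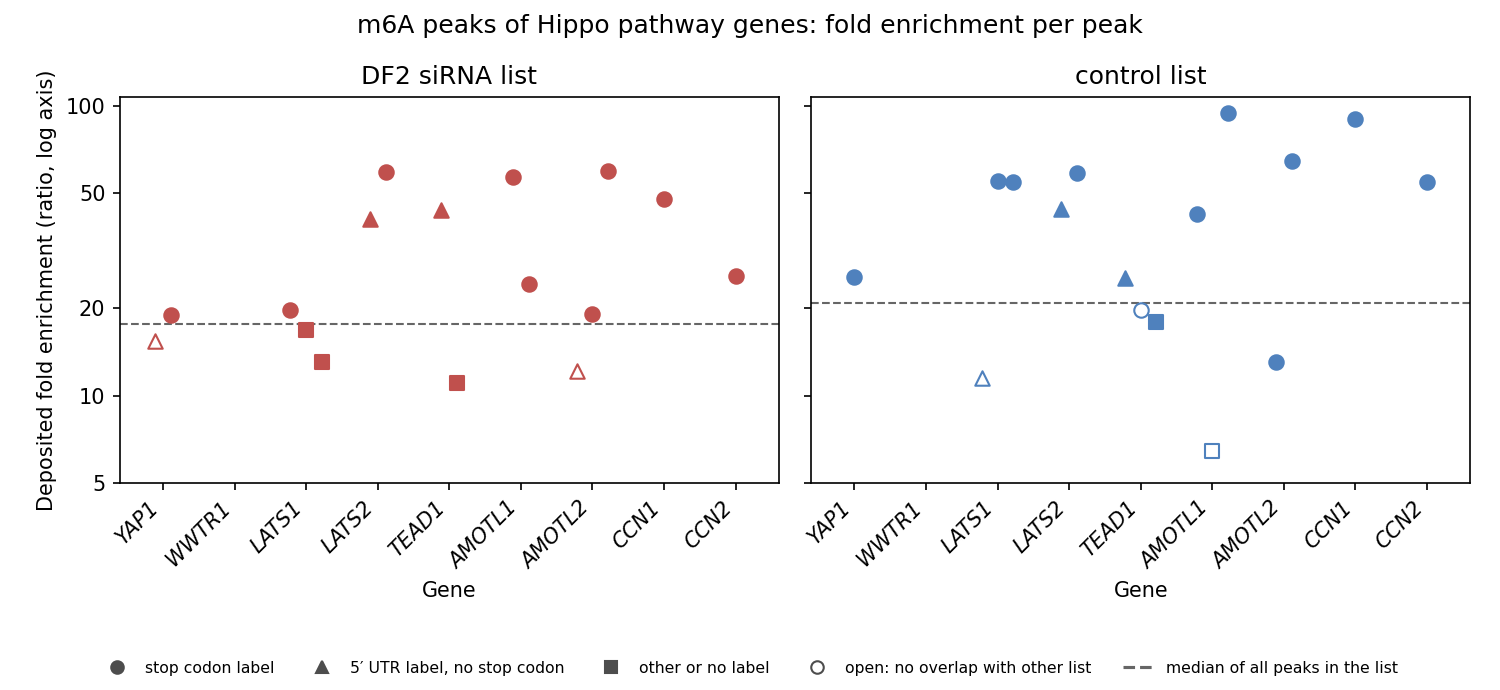
Deposited fold enrichment (ratio, log axis) of every m6A peak of the 9 genes, with DF2 siRNA on the left and control on the right, with the points of a gene in 5′ to 3′ order. Open symbols are peaks without overlap in the other list, symbol shapes give the deposited feature label, and the dashed line is the median of all peaks of that list, 17.7 in DF2 siRNA and 20.8 in control.

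The fold enrichment of a peak is the authors' own value and ranks peaks within a list. Member peaks had a median fold enrichment of 22.0 in the DF2 siRNA list (range 11.1 to 59.4), where all peaks had 17.7, and of 43.3 in the control list (range 6.44 to 94.0), where all peaks had 20.8. In both lists 11 of the 16 member peaks lay above the list's median fold enrichment. The deposited score, a whole number of unstated meaning, had a median of 276.5 for member peaks against 74 for all DF2 siRNA peaks, and of 810.5 against 143 for all control peaks. It lay above the list's median in 13 of 16 member peaks in DF2 siRNA and in 14 of 16 in control. Over all 4643 peaks at identical intervals in both lists, the median ratio of the DF2 siRNA score to the control score was 0.425. A lower score of a member in DF2 siRNA is therefore not by itself particular to that gene. The exonic length of member peaks had a median of 600 nt in DF2 siRNA cells and 800 nt in control cells, and that of all peaks was 600 nt in both lists.

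YAP1, the main co-activator of the pathway, had 2 peaks in DF2 siRNA cells and 1 in control cells. The first DF2 siRNA peak lay on chromosome 11 from 102110461 to 102110860 (hg38), labelled 5′ UTR and coding, with a fold enrichment of 15.5, a score of 60 and a −log10 FDR of 3.21. It stood at percentile 43.6 of the list by fold enrichment and 44.9 by score, near the middle, and no control peak of YAP1 touched it. At the YAP1 start the control list held a peak of 200 nt on the opposite strand, assigned to RP11-732A21.3, from 102110258 to 102110457, with a score of 8. The other YAP1 peak was the stop codon peak, which began at 102227023 in both lists. It ran to 102230127 with 600 nt and a fold enrichment of 19.0 in DF2 siRNA cells, and to 102230527 with 1000 nt and a fold enrichment of 25.6 in control cells. The DF2 siRNA peak thus lay wholly inside the control one and ended 400 nt earlier in the 3′ UTR. By fold enrichment these peaks stood at percentile 53.3 in DF2 siRNA and 57.6 in control, near the middle of their lists. Their scores stood higher, 382 at percentile 85.4 in DF2 siRNA and 1135 at percentile 89.5 in control.

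WWTR1, the paralogue of YAP1 known as TAZ, had no peak in either list. Both lists do hold a peak named TAZ, but it lies on chromosome X from 154420246 and belongs to TAFAZZIN, a mitochondrial cardiolipin enzyme that once carried that name. Both lists also hold a peak of WWTR1-AS1, the antisense gene at an inner WWTR1 start, over the identical interval of chromosome 3, 149657707 to 149658706, on the plus strand. It was listed with a fold enrichment of 14.9 and score of 20 in DF2 siRNA cells, and with 41.2 and a score of 62 in control cells. By fold enrichment it stood at percentile 41.8 among DF2 siRNA peaks and 73.7 among control peaks, and by score at 22.0 among DF2 siRNA peaks and 35.0 among control peaks. The peak covered all 300 bases of the window around the WWTR1 start at base 149658025, and 319 nt of it lay on the transcribed side of that start. It is 1 of 2 WWTR1 starts with a window here, and it lies inside the RefSeq gene, which begins at base 149724788. Of its 1000 nt, 503 lay before the RefSeq start of WWTR1-AS1 at base 149658210. The sources used here do not say whether the authors' counting used strand, so reads of WWTR1 and of its antisense partner cannot be told apart in this interval. The 250 bases before the WWTR1 start at base 149658025 all lay under this peak on the other strand. They are shown on the WWTR1 (minus) strand, with the 184 bases between that start and the WWTR1-AS1 start in capitals.
WWTR1, chr3:149658026-149658275, minus strand: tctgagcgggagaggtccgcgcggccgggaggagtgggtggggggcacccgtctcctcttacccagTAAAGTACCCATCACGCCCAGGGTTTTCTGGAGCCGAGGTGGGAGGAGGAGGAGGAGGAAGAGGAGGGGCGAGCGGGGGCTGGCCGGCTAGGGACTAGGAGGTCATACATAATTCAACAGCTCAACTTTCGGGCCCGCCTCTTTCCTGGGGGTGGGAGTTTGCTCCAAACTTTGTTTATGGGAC

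LATS1 and LATS2, the kinases that inactivate YAP1 and WWTR1, differed from each other in how far their peaks matched between the lists. LATS2 carried almost the same peaks in both. Its first peak, labelled 5′ UTR and coding, ran over the identical interval of chromosome 13, 21023078 to 21061547, with a fold enrichment of 40.5 and score of 252 in DF2 siRNA cells and 44.2 and 533 in control cells. Its second and longest peak covered 2800 nt from coding sequence into the 3′ UTR in DF2 siRNA cells, with a fold enrichment of 58.9, and 3000 nt in control cells, with 58.7. The control peak went 200 nt further at the 3′ end, down to base 20974410. This is the widest peak of any member in both lists.

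LATS1 had 3 peaks in each list, but they covered 2000 nt in DF2 siRNA cells and 3600 nt in control cells. The widest control peak, 149676253 to 149684438 on chromosome 6, held 2400 nt of exonic sequence with a fold enrichment of 55.0 and score of 832. In the DF2 siRNA list the same stretch held 2 separate peaks, 1 of 1200 nt with a fold enrichment of 19.8 and 1 of 400 nt with 16.8. The last LATS1 peak had 400 nt and a fold enrichment of 13.1 in DF2 siRNA cells and 800 nt and 54.6 in control cells. All 3 DF2 siRNA peaks were contained in control peaks. The first control peak, labelled 5′ UTR and coding (149701982 to 149716233), had no DF2 siRNA partner. With a fold enrichment of 11.5, a score of 110 and a −log10 p of 2.07, it lay at percentile 25.5 of the control list by fold enrichment and 44.8 by score. Near the LATS1 start the DF2 siRNA list had a peak on the opposite strand, assigned to AL358852.1, with a score of 6, and the control list had none.

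TEAD1, the DNA-binding partner of YAP1 and WWTR1, had 2 peaks in DF2 siRNA cells and 3 in control cells. The first, at the 5′ UTR and the start of the coding sequence, began at base 12674591 of chromosome 11 in both lists. It had 400 nt, a fold enrichment of 43.8 and score of 562 in DF2 siRNA cells, and 600 nt, 25.4 and 852 in control cells. By fold enrichment it stood at percentile 82.2 of the DF2 siRNA list and 57.3 of the control list, and by score at 90.9 in DF2 siRNA and 85.4 in control. Ranks from lists of different lengths do not measure a change. The stop codon peak of TEAD1, 12930223 to 12937404, was listed in control only, with a fold enrichment of 19.7, a score of 535 and a −log10 p of 3.86. It had the highest score of the 5 member peaks without a partner, percentile 77.3 of the control list, and stood at percentile 47.9 by fold enrichment. The third site, in the 3′ UTR up to base 12942804, had 400 nt and a fold enrichment of 11.1 in DF2 siRNA cells and 600 nt and 17.9 in control cells. Its −log10 FDR of 1.39 in DF2 siRNA cells lay close to the list's minimum of 1.302.

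AMOTL1 carried 2 peaks in DF2 siRNA cells and 3 in control cells, and AMOTL2 carried 3 in DF2 siRNA cells and 2 in control cells. The first AMOTL1 peak of DF2 siRNA cells spanned bases 94728954 to 94800267 of chromosome 11 in 1400 nt of exonic blocks, labelled 5′ UTR, coding and stop codon. It was listed at a fold enrichment of 56.6, with a score of 744. The matching control peak began at 94795039 and had 1000 nt, all inside the DF2 siRNA one, with a fold enrichment of 42.4 and score of 1553. The 400 nt found in DF2 siRNA only were the 5′ blocks, and they include the start shown above. The stop codon and 3′ UTR peak of AMOTL1 covered the identical interval in both lists, 94869304 to 94871318. Its fold enrichment was 24.2, percentile 62.7, in DF2 siRNA cells and 94.0, percentile 94.4, in control cells, where it was the highest of all member peaks. By score it stood at percentile 71.4 in DF2 siRNA and 94.1 in control. The second control peak, 400 nt without a label, had a fold enrichment of 6.44 and score of 7, the lowest of all member peaks in either list. It stood at percentile 6.21 by fold enrichment and 4.97 by score.

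The AMOTL2 peak found in DF2 siRNA only lay in the 5′ UTR on chromosome 3 from 134374101 to 134374587, with 400 nt, a fold enrichment of 12.2, a score of 81 and a −log10 FDR of 1.89. It stood at percentile 31.9 of the list by fold enrichment and 52.2 by score. The next peak, 134371030 to 134371816, covered the identical 600 nt in both lists, with a fold enrichment of 19.1 in DF2 siRNA cells and 13.1 in control cells. It carries the labels 5′ UTR, coding and stop codon together. The peak at the end of the gene had 1800 nt in both lists and a fold enrichment of 59.4 in DF2 siRNA cells and 64.5 in control cells. Of these, 1600 nt were shared. The DF2 siRNA peak added 200 nt at the 5′ side and the control peak 200 nt at the 3′ side. In both lists 187 nt of this peak were also part of a peak assigned to RPL39P5, so those bases stand under 2 genes.

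CCN1 and CCN2, target genes of YAP1 and TEAD factors, had 1 peak each in both lists, at the stop codon and in the 3′ UTR. The CCN1 peak ended at base 85583707 of chromosome 1 in both. It had 800 nt and a fold enrichment of 47.8 in DF2 siRNA cells, and 1000 nt and 90.2 in control cells, where the extra 200 nt lay at the 5′ side. Its score was the highest of the members in both lists, 2076 at percentile 99.2 in DF2 siRNA cells and 5117 at percentile 99.4 in control cells. By fold enrichment CCN1 stood at percentile 84.5 in DF2 siRNA and 93.6 in control. The CCN2 peak, on the minus strand of chromosome 6, began at base 131949514 in both lists. It had 600 nt, a fold enrichment of 25.9 and score of 301 in DF2 siRNA cells, and 800 nt, 54.6 and 1185 in control cells. CCN2 stood at percentile 81.4 in DF2 siRNA and 90.0 in control by score, and at 65.0 in DF2 siRNA and 81.9 in control by fold enrichment. In both genes the DF2 siRNA peak lay wholly within the control peak.

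**Figure D2:**
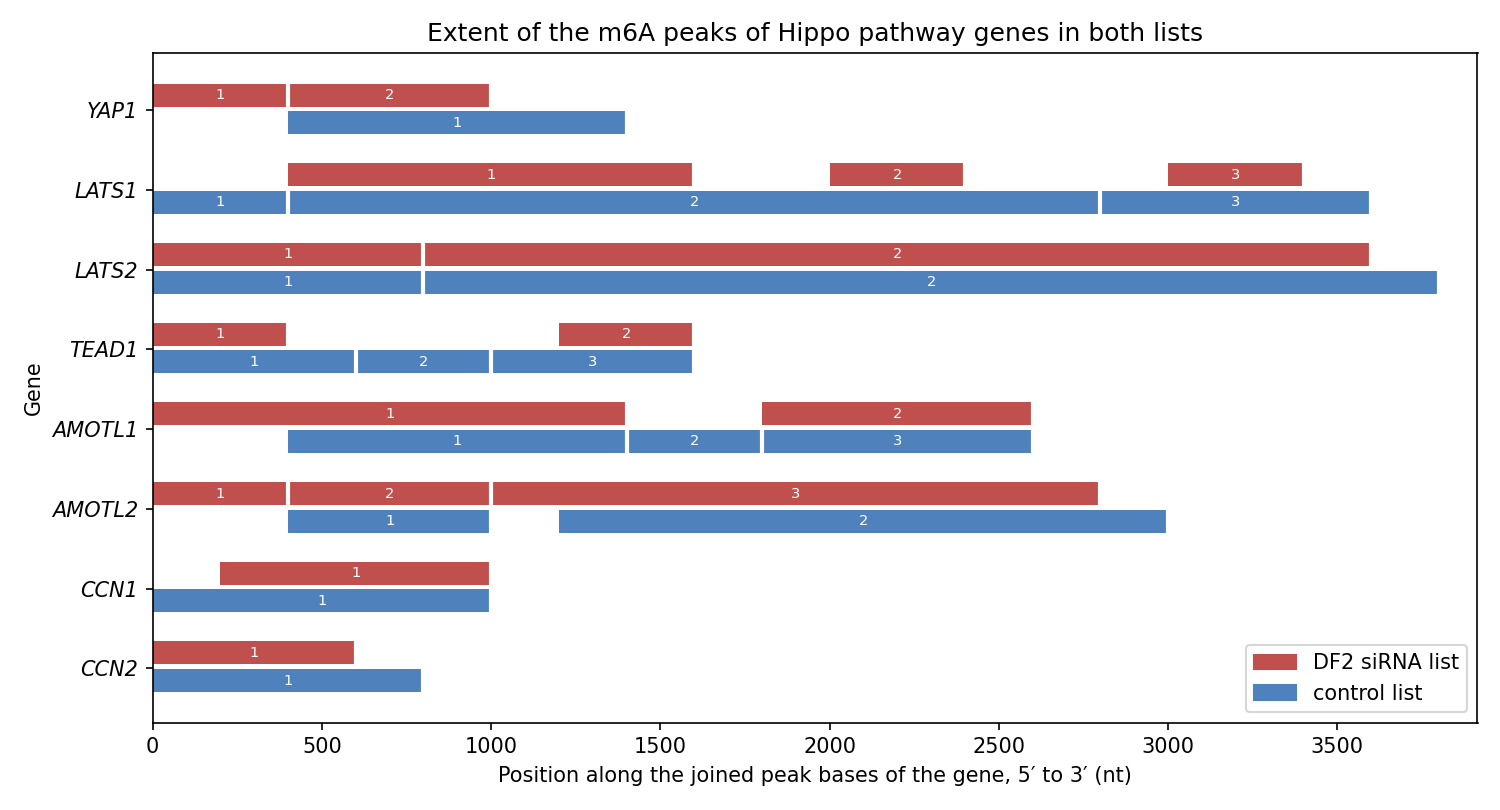
Extent of the peaks of the 8 genes, with the bases under a peak in either list joined end to end in 5′ to 3′ order (x axis, nt, introns and bases outside peaks left out), the DF2 siRNA list above the control list. Numbers count the peaks of a gene within a list from the 5′ end. The bases in the DF2 siRNA list only were at the 5′ side in YAP1 and AMOTL1, and in AMOTL2 there and at the 5′ side of its last peak. The control list alone covered the 3′ end in YAP1, LATS1, LATS2, AMOTL2 and CCN2. It also alone covered the 5′ end in LATS1 and CCN1, and stretches between shared bases in LATS1, TEAD1 and AMOTL1.

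Bases under peaks were compared by gene. The 8 genes had 13800 nt under DF2 siRNA peaks and 16400 nt under control peaks, and 12400 nt were in both. The shared bases were 89.9% of the DF2 siRNA bases and 75.6% of the control bases. Over all 7950 genes with a peak in both lists the shares were 90.4% of DF2 siRNA bases and 76.9% of control bases, so the members were close to the lists as a whole. In LATS1, LATS2, TEAD1, CCN1 and CCN2, every base of a DF2 siRNA peak was also under a control peak. In these 5 genes the control list had 200 nt more in LATS2, CCN1 and CCN2, 800 nt more in TEAD1 and 1600 nt more in LATS1. AMOTL2 alone of the 8 had more bases in DF2 siRNA cells, 2800 nt against 2400 nt in control cells, and YAP1 and AMOTL1 had equal numbers in both lists at partly different places. Among all genes in both lists, 50.9% had more bases in control and 19.96% more in DF2 siRNA.

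**Figure D3:**
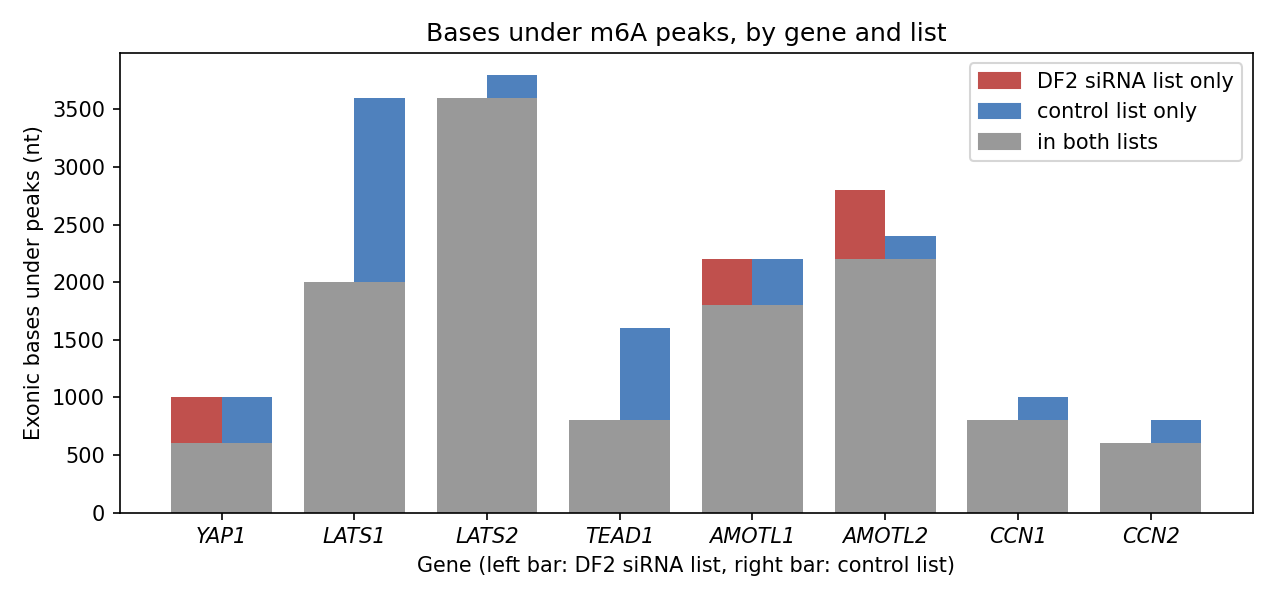
Exonic bases under m6A peaks (nt) in the 8 genes, with the DF2 siRNA list as the left and the control list as the right bar of each gene. Grey is the part in both lists and colour the part in 1 list, which reaches 1600 nt in LATS1 for control and 600 nt in AMOTL2 for DF2 siRNA.

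The ends of overlapping peaks were compared in the 14 pairs of a DF2 siRNA and a control peak of the same member. The 3′ end of the DF2 siRNA peak lay upstream of the control one in 8 pairs, at the same base in 6 and downstream in 0. In LATS1, 2 of these 8 pairs share 1 control peak. Over all 11772 such pairs of the series, 30.2% had the DF2 siRNA end upstream and 10.9% had it downstream. The 5′ ends were at the same base in 8 member pairs, further downstream in DF2 siRNA in 4, and further upstream in 2, the first AMOTL1 peak and the last AMOTL2 peak. Of the 4 further downstream, 1 is a LATS1 pair at the control peak that 2 pairs share. Over all pairs, 25.8% had the DF2 siRNA 5′ end further downstream and 10.9% further upstream, and the members' counts for the 5′ end lie near these shares. The part of sequencing depth, or of an FDR limit beside a p-value limit, in these ends was not tested.

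A stop codon label was carried by 9 of the 16 member peaks in DF2 siRNA, against 43.7% of all DF2 siRNA peaks, and by 11 of the 16 in control, against 42.7% of all control peaks. In both lists these counts include the first AMOTL1 peak and the AMOTL2 peak labelled 5′ UTR, coding and stop codon. Neither was the last peak of its gene, so the label need not mark the end of the gene. All members with a peak had at least 1 stop codon peak in the control list. In the DF2 siRNA list TEAD1 had none. A 5′ UTR label was carried by 6 of 16 member peaks in DF2 siRNA, where 25.9% of all peaks had it, and by 4 of 16 in control, where 24.3% did. The 5′ peaks without a partner were those of YAP1 and AMOTL2 in DF2 siRNA and that of LATS1 in control, so neither list held all of the 5′ sites. No stop codon label stood on a DF2 siRNA member peak of at most 400 nt, and 1 of 3 such control peaks had one.

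A wider list of 56 other Hippo pathway genes was examined by role. Of these, 32 had a peak in both lists, 1 in DF2 siRNA only, 5 in control only and 18 in neither. Over all protein-coding genes, 33.7% had a peak in both lists, 2.44% in DF2 siRNA only and 6.03% in control only. The counts of genes in 1 list only thus lay near the shares over all genes. The 67.9% with a peak in either list stand beside the 42.2% of all protein-coding genes. They carried 68 DF2 siRNA peaks and 81 control peaks. Below, the values of a gene in both lists are the fold enrichments of its best peak in each list, which can lie at different sites.

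Of 16 upstream kinases and scaffolds, 11 were in both lists. The kinase TAOK1, which activates the Hippo kinases, had a fold enrichment of 52.9 in DF2 siRNA cells and 55.3 in control cells. Its relative TAOK2 was listed at 43.3 in DF2 siRNA and 31.3 in control, and the scaffold gene FRMD6 at 38.7 in DF2 siRNA and 59.3 in control. MAP4K4, a kinase that can phosphorylate LATS1 and LATS2, had 2 peaks in DF2 siRNA cells, with a best fold enrichment of 10.9 and a −log10 FDR of 1.74, and none in control cells. Among 8 cadherins and junction regulators, 5 were in both lists. The giant cadherin gene FAT1 had 9 peaks in DF2 siRNA cells and 8 in control cells, with a best fold enrichment of 91.1 in DF2 siRNA and 90.3 in control. The LIM protein gene LIMD1, whose product binds LATS kinases, was listed at 87.8 in DF2 siRNA and 70.3 in control, and the cadherin gene FAT4 at 69.8 in DF2 siRNA and 135 in control.

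Of 8 genes of the STRIPAK phosphatase complex and of protein degradation, 4 were in both lists. The casein kinases CSNK1E and CSNK1D, which prime YAP1 for degradation, had a peak in each list. CSNK1E was listed at 59.1 in DF2 siRNA and 97.0 in control, and CSNK1D at 55.7 in DF2 siRNA and 70.3 in control. The ubiquitin ligase adaptor BTRC was listed at 20.8 in DF2 siRNA and 34.5 in control. The STRIPAK genes SIKE1 (25.8) and STRN4 (8.76) had a peak in control only. Of 7 nuclear partners, TEAD4, a relative of TEAD1, was the 1 gene in both lists, at 80.1 in DF2 siRNA and 61.2 in control. VGLL3, a TEAD cofactor, had 4 peaks in control, the best at 27.7, and 0 in DF2 siRNA.

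Of 17 target genes of YAP1 and WWTR1, 11 were in both lists, 2 in control only and none in DF2 siRNA only. FJX1 had the highest fold enrichment of the wider list in DF2 siRNA, 142, at percentile 99.2, and was listed at 112 in control. ARHGEF17 was listed at 112 in DF2 siRNA and 89.1 in control, and CRIM1 at 81.1 in DF2 siRNA and 24.9 in control. The coagulation factor gene F3 (9.89, −log10 p of 1.38) and the RNA-binding protein gene RBMS3 (8.96, score 9) had a peak in control only. Without a peak in either list, and named after their values were seen, were STK3, MOB1A, MOB1B and WWC1 of the kinases and scaffolds, DCHS1, AMOT and WTIP of the junction genes, and STRN and ITCH. The same holds for TEAD2, TEAD3, VGLL1, VGLL2 and VGLL4 of the nuclear partners and for MYOF, ANKRD1, AXL and NT5E of the targets.

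**Figure D4:**
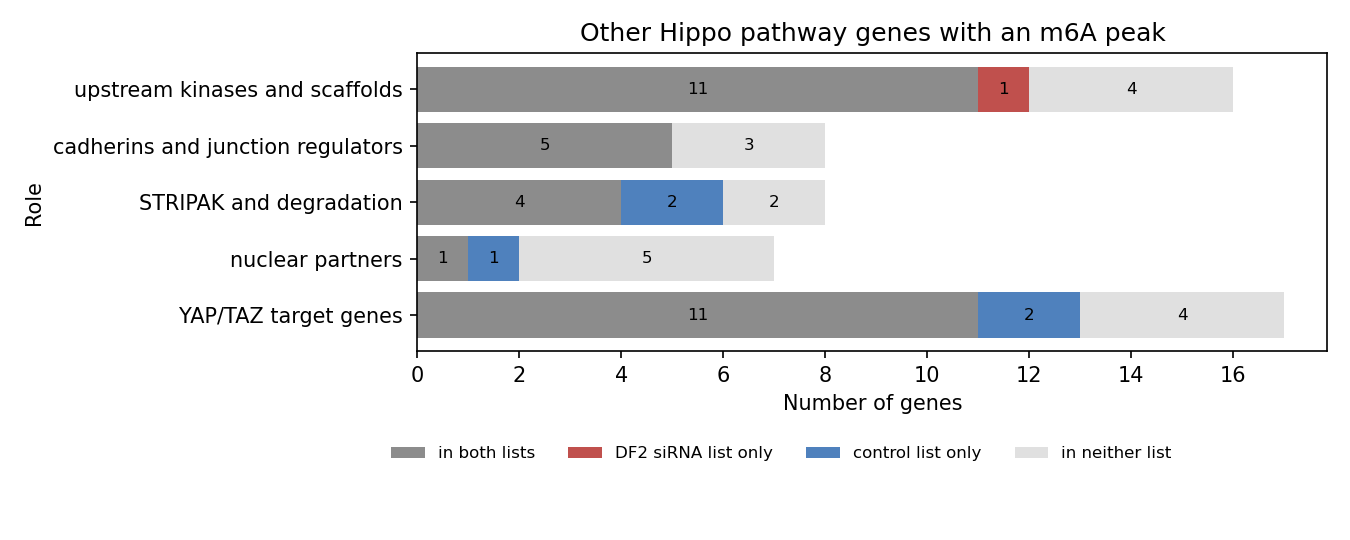
Number of other Hippo pathway genes (x axis) with a peak in both lists, in the DF2 siRNA list only, in the control list only or in neither, by role (y axis). All roles but the nuclear partners had most of their genes in a list, and 5 of the 7 nuclear partners had no peak. A peak in either list was held by 28.6% of the nuclear partners and 42.2% of all protein-coding genes. With 7 genes these shares do not set the role apart.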

How the data were processed

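The submitters' processing notes name HISAT2 and hg38 for the m6A and input reads. The sources used here name no peak caller, settings, annotation or strand use. Per the file headers, the authors list a fold enrichment for each peak, a ratio to an unstated base. The deposited −log10 value refers to FDR for DF2 siRNA and to a p-value for control, per the file headers, with minima of 1.302 and 1.301. The deposited score holds whole numbers, with no stated meaning. The library depths behind these values are unknown.

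In peaks on the minus strand the deposited block sizes stand in the opposite order to the block starts: as listed, the last block missed the peak end in 2860 DF2 siRNA and 3918 control peaks, and with the sizes reversed it met the end in all 13219 and 15730 peaks. Sizes were therefore reversed. Overlap needs at least 1 shared exonic base on the same strand, and coordinates count from 1. The counting was tested on simulated data in which 60% of control peaks were left in place, and it found 60%. Since the kept peaks were not moved, this did not test peaks that overlap in part. RefSeq gene names (GRCh38.p14) were matched by symbol, or by an older name that no other gene shares, on the same chromosome. The sequence under the peaks was not analysed here. The members, lists, tests and named genes were chosen with earlier results of these data known. Named were YTHDF2, all members, and from each role of the wider list up to 3 genes in 1 list only per direction and the 3 highest by DF2 siRNA fold enrichment in both. Alternatives changed the limits, list lengths, overlap rule, merging, labels and gene assignment. Python 3.11.15, pandas 2.3.3, numpy 2.4.6 and matplotlib 3.10.9 were used. The result of a further marker list is not reported here.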

Additional observations from a re-analysis of the deposited data

How the results depend on the processing

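Of 57 counts recomputed under alternatives, 47 stayed within 1.5 times the reported count. They include all counts of members in both lists (8), in DF2 siRNA only (0) and in control only (0), and all counts of overlapped member peaks, also with block sizes in the listed order, an alternative chosen after seeing the data. The rule compares counts and not shares. In the upper 50% by fold enrichment, 9 of 11 member peaks in each list had a stop codon label. As reported these were 9 of 16 in DF2 siRNA and 11 of 16 in control. Wider list genes in both lists, 32 as reported, were 25 with a p or FDR limit 100 times smaller, and 22 in that upper 50%. Of the wider list, 1 gene was in DF2 siRNA only and 5 in control only as reported. These were 0 in DF2 siRNA only and 9 in control only when the p or FDR limit was made 100 times smaller, and 0 in DF2 siRNA only and 10 in control only in the upper 50% by fold enrichment. Those in control only were 3 when the lists were cut to the same length, and 3 under a score floor of 10 in DF2 siRNA and 23.5 in control, where those in DF2 siRNA only stayed at 1. Member peaks with a stop codon label, 9 in DF2 siRNA and 11 in control, were 0 of 6 in DF2 siRNA and 1 of 3 in control among peaks of at most 400 nt, and 0 of 2 in DF2 siRNA and 0 of 2 in control among peaks with 1 label. The best peak of each member was the same by score as by fold enrichment. No paired analysis was possible because each condition has 1 list for both libraries, and for the same reason no library could be left out. Depth limits all counts and is unknown, and the −log10 value refers to FDR in DF2 siRNA and to a p-value in control.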
